A study of Mus musculus with 15 samples.

Results

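The carbonic anhydrases Car2, Car3, Car4, Car5b, Car7, Car8, Car9, Car12, Car13 and Car14 were followed in mouse thoracic aorta, 10 genes taken by symbol from the 37681 rows of a gene count table. The mice were wild-type C57BL/6 adult males, 10 to 12 weeks old and fed regular chow, and the RNA was selected by its polyA tail. The celecoxib group was gavaged with 100 microlitres holding 30 mg/kg of the drug, the rofecoxib group with the same volume at 10 mg/kg, and the vehicle group with PEG-400 (polyethylene glycol) alone. Every group had 5 libraries, described as biological replicates, from aortas taken 6 hours after dosing at Zeitgeber hour 11. No gene was altered in any group, and the drugs were given at different doses, so compound and dose cannot be told apart.

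Carbonic anhydrases are zinc enzymes that interconvert carbon dioxide and water with bicarbonate and a proton. Primary sulfonamides bind the zinc of the active site and block the enzyme, which is how acetazolamide works. Celecoxib carries such a sulfonamide and is known to bind human carbonic anhydrases. Rofecoxib carries a methylsulfone in its place and lacks that zinc-binding group, and the compounds also differ in their central ring. Both are selective inhibitors of cyclooxygenase-2. The libraries measured transcripts, so the binding of a drug to the enzymes and the activity of the enzymes were not measured. The comparisons below ask how much of each transcript was present after each drug against vehicle, and after celecoxib against rofecoxib.

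The transcripts fell into a very unequal set of levels. Levels were set beside each other per length, as CPM (counts scaled to a common library total) divided by the kilobases of exon in an annotation of a later build, since the annotation used for counting is not given. In vehicle aortas Car3, a slow cytosolic isoform that is abundant in fat and weakly sensitive to sulfonamides, averaged 457 ± 249 CPM per kilobase (SD, n = 5). Car3 took 91.7% to 94.1% of the per-length level summed over the 10 genes in celecoxib libraries, 91.6% to 96.0% in rofecoxib libraries and 92.2% to 96.2% in vehicle libraries. The mitochondrial Car5b averaged 8.98 ± 3.25 CPM per kilobase in vehicle aortas and Car4, an isoform anchored to the outer cell membrane, 8.35 ± 1.69 CPM per kilobase, and their ranges overlapped. The cytosolic Car13 followed at 2.49 ± 0.856 CPM per kilobase, below every Car4 value and above every Car9 value in vehicle aortas.

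The remaining genes were lower still on the per-length scale. Car9, Car14, Car2, Car8 and Car7 averaged 1.18, 1.12, 1.003, 0.851 and 0.693 CPM per kilobase in vehicle aortas, and each overlapped its neighbour in that order. Car12, a transmembrane isoform, averaged 0.0346 CPM per kilobase in vehicle aortas, with all its values below those of Car7. It had 0 to 10 counts per library and was the only gene of the 10 that did not pass the filter on low counts. It had 0 counts in 1 celecoxib and in 1 rofecoxib library, which allows up to 3 counts, between 0.0933 and 0.102 CPM across the libraries. No difference in Car12 was detectable at this depth, and no fold change is given.

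**Figure D1:**
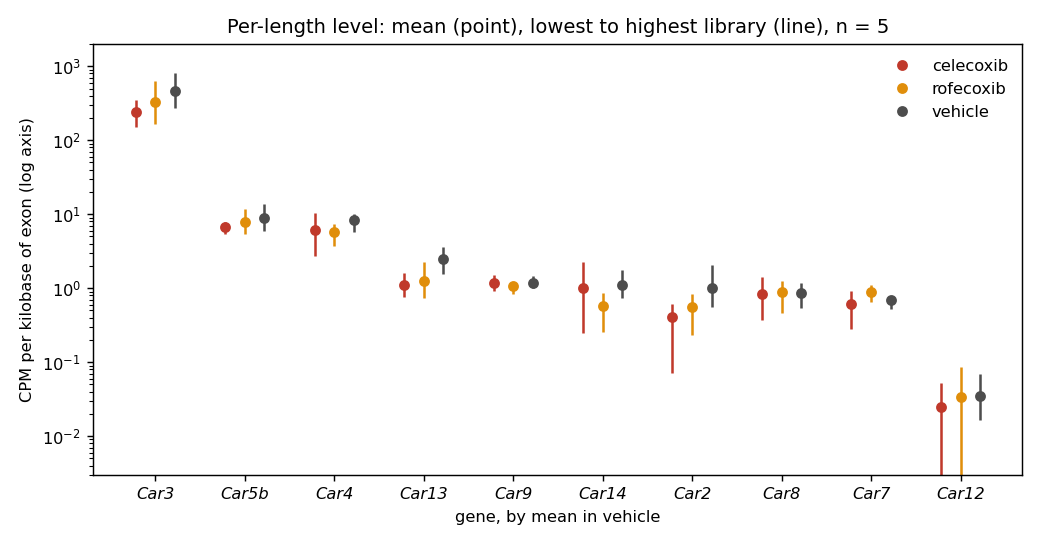
Mean level per length of the 10 carbonic anhydrases on a log axis in CPM per kilobase of exon, in celecoxib, rofecoxib and vehicle aortas (point: mean of 5 libraries, line: lowest to highest library). Car3 lies far above the other genes in all 3 groups and Car12 lies lowest, with lines that run off the axis where a library had 0 counts.

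Car2, Car3 and Car13 are close neighbours on mouse chromosome 3. In the mm9 build the order is Car13, Car1, Car3 and Car2, from base 14641525 to base 14900971, a span of 259447 bases. Car3 lies at chr3:14863336-14872553 and ends 13670 bases before Car2 starts at chr3:14886224-14900971, while Car13 lies at chr3:14641525-14663204. Car14 lies elsewhere on the same chromosome, at chr3:95701489-95708816, and the other 6 genes lie on chromosomes 4, 8, 9, 11 and X. The 3 genes of the cluster were also those with an unadjusted p under 0.05 for celecoxib against vehicle, as described below.

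Car9 and Car14 both code for transmembrane enzymes with their active site outside the cell, and Car9 is a known target of the hypoxia-inducible factors. A RefSeq promoter was at hand for 6 of the genes (Car4, Car5b, Car7, Car9, Car12 and Car14). The promoters of Car9 and Car14 are shown because they held ACGTG in the 250 bases before the start. ACGTG is 1 form of the core of the hypoxia response element, and the form GCGTG was not searched. ACGTG was searched on both strands, with no overlap with the other motif searched, AGGTCA. Both promoters are from RefSeq on GRCm38.p6, 5′ to 3′ in the direction of the gene, with the core in capitals, where it reads CACGT because it lies on the opposite strand.
Car9, chr4:43506776-43507025, plus strand: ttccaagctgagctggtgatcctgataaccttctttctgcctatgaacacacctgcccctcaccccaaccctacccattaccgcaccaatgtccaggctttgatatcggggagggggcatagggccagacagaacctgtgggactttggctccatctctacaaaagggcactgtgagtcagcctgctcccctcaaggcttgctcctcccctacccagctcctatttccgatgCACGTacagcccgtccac
Car14, chr3:95904686-95904935, minus strand: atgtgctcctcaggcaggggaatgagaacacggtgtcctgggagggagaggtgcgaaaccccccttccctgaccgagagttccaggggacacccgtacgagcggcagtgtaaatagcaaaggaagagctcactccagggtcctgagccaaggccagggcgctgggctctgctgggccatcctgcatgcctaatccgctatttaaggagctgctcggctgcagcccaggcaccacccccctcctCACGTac
The core began 18 bases before the start of Car9 and 7 bases before the start of Car14. The 6 genes had 8 promoter windows, of which 2 held ACGTG. Of all 32851 mouse promoter windows of the same length, 16.6% held ACGTG, so the count is only a description of these windows. The nuclear receptor half-site AGGTCA was found in 1 of the windows, of Car7, and in 14.02% of all windows.

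Libraries also differed within each group. Counts summed to between 30937046 and 30967115 per library, with 19158 to 19746 genes detected. Of the variance between libraries, 47.0% lay along a first principal component that was highest in celecoxib library 4, rofecoxib libraries 3 and 5 and vehicle library 4, the same 4 libraries with the highest mean of 11 sympathetic neuron markers (4.02 to 5.57 log2 CPM, against -1.05 to 2.85 in the other 11). Celecoxib library 1 stood apart on the second component, which held 10.9% of the variance. It lay at -52.6 there, against -11.5 to 17.4 in the other libraries. The same library had the highest Car4 and Car14 values and the lowest Car7 value of the celecoxib group. Smooth muscle markers were abundant in every library, with Acta2 at 14131 to 23663 CPM and Myh11 at 9687 to 13119 CPM across the 15 libraries. White adipocyte markers were present in all groups, and all of the markers listed for brown adipocytes had counts in at least 1 library.

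No carbonic anhydrase differed between celecoxib and vehicle at an adjusted p under 0.05, but the cytosolic isoforms Car13, Car2 and Car3 were the lowest relative to vehicle. Car13 was at 0.448-fold, Car2 at 0.410-fold and Car3 at 0.523-fold of the vehicle level. None of the 9 genes tested passed in the edgeR quasi-likelihood fit (Benjamini-Hochberg adjustment) over 15134 genes, where 0% of all genes tested were called and the smallest adjusted p was 0.146. An unadjusted p under 0.05 was reached by 3 of the 9, all lower, beside 12.5% of all genes tested (7.18% lower and 5.35% higher). Limma-voom called 0 of the 9, and DESeq2 called 1, Car13, beside 0.853% of all genes that it called. DESeq2's Wald test gave Car2 an unadjusted p of 0.00946 and no adjusted p, so Car2 could not be called by it.

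Car13, a cytosolic enzyme of broad tissue distribution, had 2.34, 1.74, 2.49, 3.69 and 2.56 CPM in the 5 celecoxib libraries, 5.19, 1.67, 2.81, 2.73 and 2.18 CPM in the 5 rofecoxib libraries, and 4.11, 3.62, 5.53, 7.11 and 8.27 CPM in the 5 vehicle libraries. All celecoxib libraries lay below the vehicle median and 4 of 5 below the lowest vehicle library, so the groups overlapped in celecoxib library 4. Car13 averaged 2.56 ± 0.707 CPM in celecoxib, 2.92 ± 1.35 CPM in rofecoxib and 5.73 ± 1.97 CPM in vehicle aortas (SD, n = 5 each). For celecoxib against vehicle the log2 fold change was -1.16 ± 0.30 (SE), with a 95% interval of -1.81 to -0.51, an unadjusted p of 0.00178 and an adjusted p of 0.269 in the edgeR quasi-likelihood fit (Benjamini-Hochberg adjustment). An exact two-sided permutation test of log2 CPM gave an unadjusted p of 0.0159, where 0.00794 is the smallest p that 5 against 5 allows and 27 such tests were made. DESeq2 gave Car13 an adjusted p of 0.0313, and over the other alternatives its adjusted p ran from 0.0966 to 0.760.

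Car2, the fast cytosolic enzyme best known from red cells, kidney and osteoclasts, had 0.949, 0.129, 0.591, 1.09 and 0.907 CPM in celecoxib libraries, 1.48, 0.768, 1.26, 1.03 and 0.411 CPM in rofecoxib libraries, and 1.09, 0.987, 1.52, 1.68 and 3.68 CPM in vehicle libraries. Vehicle library 5 stood high, and 4 of 5 celecoxib libraries lay below the lowest vehicle library, with overlap in celecoxib library 4. The log2 fold change for celecoxib against vehicle was -1.29 ± 0.49 (SE; adjusted p = 0.321 by the edgeR quasi-likelihood fit (Benjamini-Hochberg adjustment)), and it was -0.85 without vehicle library 5. The exact two-sided permutation test gave an unadjusted p of 0.0159. Car2 was at 4 to 112 counts per library.

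Car3 had 441, 250, 263, 593 and 459 CPM in celecoxib libraries, 1059, 522, 424, 474 and 281 CPM in rofecoxib libraries, and 495, 451, 467, 1347 and 1078 CPM in vehicle libraries. Vehicle libraries 4 and 5 and rofecoxib library 1 stood high, and the groups overlapped. The means were 401 ± 145 CPM in celecoxib, 552 ± 297 CPM in rofecoxib and 768 ± 417 CPM in vehicle aortas (SD, n = 5 each). The log2 fold change for celecoxib against vehicle was -0.94 ± 0.40 (SE; adjusted p = 0.363 by the edgeR quasi-likelihood fit (Benjamini-Hochberg adjustment)), and it was -0.62 without vehicle library 4. The exact two-sided permutation test gave an unadjusted p of 0.0952, above the threshold of 0.05.

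Car4 and Car5b were lower after celecoxib without an unadjusted p under 0.05. Car4, known from the capillary endothelium of the lung and other organs, had 13.1, 3.38, 4.63, 10.8 and 6.57 CPM in celecoxib libraries, 9.26, 4.64, 8.54, 6.46 and 7.59 CPM in rofecoxib libraries, and 9.67, 7.21, 11.1, 12.4 and 12.0 CPM in vehicle libraries. The celecoxib libraries were the most scattered, reaching both below and above the vehicle range. Car5b, which supplies bicarbonate to enzymes inside mitochondria, had 26.1, 18.6, 18.7, 24.7 and 26.9 CPM in celecoxib libraries, 39.8, 30.1, 20.4, 26.6 and 18.5 CPM in rofecoxib libraries, and 20.7, 21.8, 28.0, 47.4 and 36.4 CPM in vehicle libraries. All 5 celecoxib libraries lay below the vehicle median of Car5b, and 2 of them below the lowest vehicle library. The log2 fold changes for celecoxib against vehicle were -0.45 ± 0.32 (SE) for Car4 and -0.43 ± 0.25 (SE) for Car5b. Single libraries moved both, Car4 to -0.72 without celecoxib library 1 and -0.25 without celecoxib library 2, and Car5b to -0.21 without vehicle library 4.

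The other transcripts had smaller fitted differences from vehicle after celecoxib, with intervals of different widths. Car9 spanned 1.86 to 3.05 CPM in celecoxib and 2.04 to 2.92 CPM in vehicle libraries, with a log2 fold change of -0.00 and a 95% interval of -0.36 to 0.35, the narrowest of the 9. Its sign was positive with DESeq2 size factors and with upper quartile scaling. Car8, which lacks catalytic activity and binds the inositol trisphosphate receptor, spanned 1.44 to 5.41 CPM in celecoxib and 2.07 to 4.48 CPM in vehicle libraries, with a log2 fold change of -0.05 and an interval of -0.80 to 0.71. Car7, a cytosolic isoform known from neurons, had a log2 fold change of -0.17 with an interval of -0.75 to 0.42. Car14, which is known from liver, kidney and brain, had a log2 fold change of -0.17 with an interval of -1.30 to 0.95. The interval of Car14 was the widest of these 4 genes. The Car14 value was -0.71 without celecoxib library 1 and 0.086 without celecoxib library 2, so its level relative to vehicle is uncertain.

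Of the 9 genes tested, 9 had a log2 fold change below 0 for celecoxib against vehicle, beside 48.6% of all genes tested, and their median was -0.43 against 0.01 over all genes. No gene of the 10 had groups that did not overlap, beside 0.74% of all genes lower and 0.555% higher without overlap. Without the 4 libraries of highest sympathetic neuron marker level the median was -0.31, and Car13, Car2 and Car3 had log2 fold changes of -1.23, -1.48 and -0.81.

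**Figure D2:**
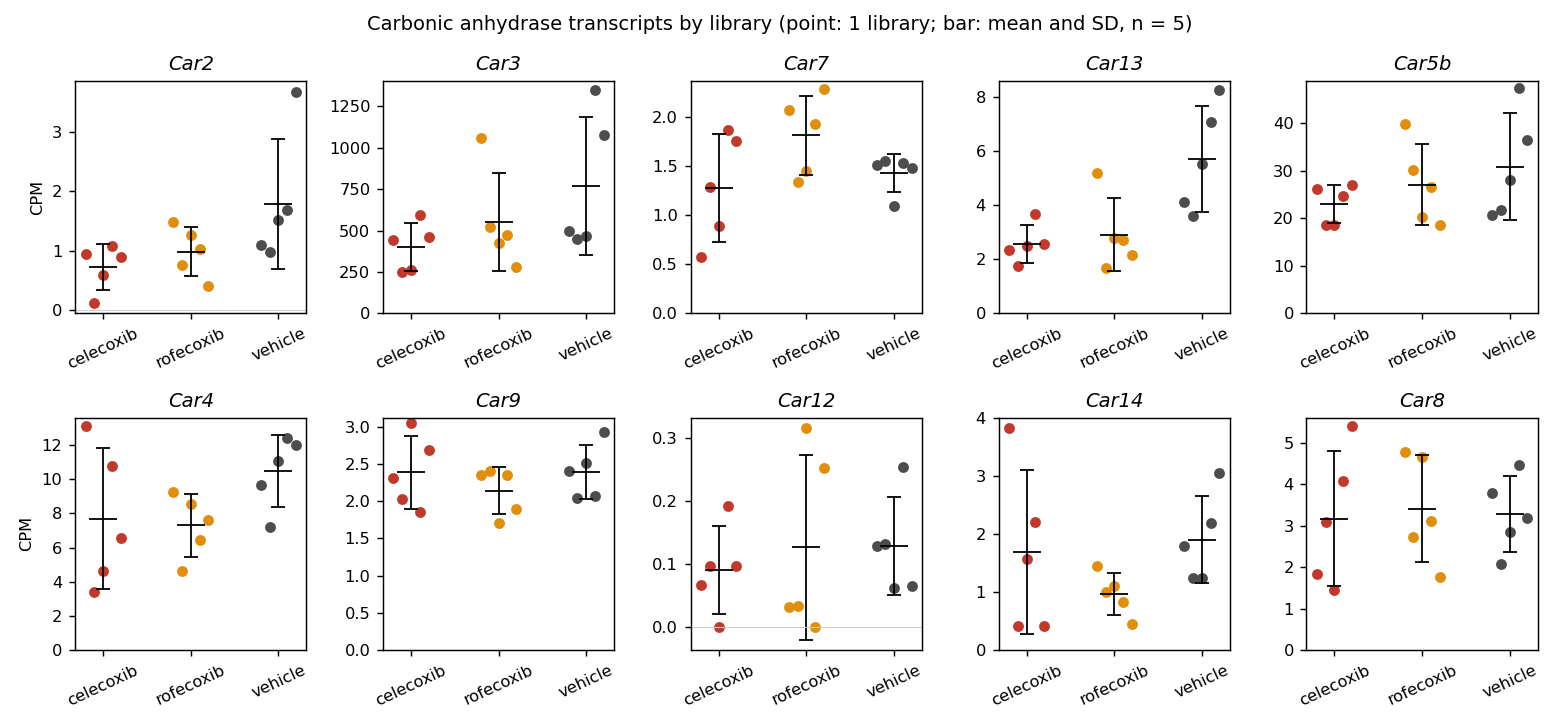
CPM of the 10 carbonic anhydrases in each library, by celecoxib, rofecoxib and vehicle (point: 1 library, bar: mean and SD, n = 5), each panel with its own linear axis. Car13 lies between 1.74 and 3.69 CPM in celecoxib and between 3.62 and 8.27 CPM in vehicle libraries, and Car2 has a vehicle library at 3.68 CPM apart from the rest.

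After rofecoxib, Car13 was again the gene of smallest p, at 0.509-fold of the vehicle level, and Car14 was at 0.508-fold. The vehicle libraries are the same as in the celecoxib comparison, so the values of the comparisons are not independent of each other. None of the 9 genes passed at an adjusted p under 0.05 in the edgeR quasi-likelihood fit (Benjamini-Hochberg adjustment), where 0% of all genes were called, and DESeq2 and limma-voom called 0 of the 9 as well. An unadjusted p under 0.05 was reached by 1 of the 9, Car13, beside 5.18% of all genes tested (3.71% lower and 1.47% higher).

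For Car13 the log2 fold change for rofecoxib against vehicle was -0.97 ± 0.30 (SE), with an unadjusted p of 0.00592 and an adjusted p of 0.896 in the edgeR quasi-likelihood fit (Benjamini-Hochberg adjustment). All 5 rofecoxib libraries lay below the vehicle median and 4 of 5 below the lowest vehicle library, while rofecoxib library 1 lay inside the vehicle range. Car14 had 3.83, 0.418, 1.58, 2.21 and 0.421 CPM in celecoxib libraries, 1.45, 1.001, 1.10, 0.835 and 0.443 CPM in rofecoxib libraries, and 1.7998, 1.25, 1.24, 2.19 and 3.05 CPM in vehicle libraries. Again 4 of 5 rofecoxib libraries lay below the lowest vehicle library. The log2 fold change of Car14 was -0.98 ± 0.54 (SE; adjusted p = 0.992 by the edgeR quasi-likelihood fit (Benjamini-Hochberg adjustment)), and the exact two-sided permutation test gave unadjusted p values of 0.0317 for Car14, 0.0238 for Car13 and 0.0476 for Car4.

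The remaining genes had log2 fold changes for rofecoxib against vehicle of -0.85 for Car2, -0.52 for Car4, -0.48 for Car3, -0.19 for Car5b, -0.16 for Car9, 0.06 for Car8 and 0.34 for Car7. The Car3 value was -0.17 without vehicle library 4 and -0.85 without rofecoxib library 1, that of Car5b was 0.02 without vehicle library 4, and that of Car2 was -0.41 without vehicle library 5. In all, 7 of 9 were below 0, beside 50.3% of all genes tested, with a median of -0.48 against -0.00 over all genes, and 0 of 10 had groups that did not overlap, beside 0.72% of all genes lower and 0.436% higher. Without the 4 libraries of highest sympathetic neuron marker level the median was -0.06, and Car3 and Car5b were above 0, at 0.14 and 0.27. These 4 libraries include vehicle library 4, which held the highest Car3 and Car5b values of its group.

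The sulfonamide and the methylsulfone compound, at 30 and 10 mg/kg, were not separated by any carbonic anhydrase at these sample sizes. None of the 9 genes tested passed in the edgeR quasi-likelihood fit (Benjamini-Hochberg adjustment) for celecoxib against rofecoxib, where 0% of all genes were called, and 0 of 9 had an unadjusted p under 0.05, beside 6.96% of all genes tested (2.91% lower and 4.05% higher). DESeq2, which called 0.132% of all genes, and limma-voom, which called 0%, called 0 of the 9. The smallest p was that of Car7, which had 0.576, 1.29, 0.886, 1.86 and 1.75 CPM in celecoxib libraries and 2.06, 1.33, 1.45, 1.93 and 2.28 CPM in rofecoxib libraries. All celecoxib libraries lay below the rofecoxib median and the groups overlapped. For Car7 the log2 difference was -0.51 ± 0.27 (SE), its interval ran from -1.09 to 0.08 and its adjusted p was 0.715 in the edgeR quasi-likelihood fit (Benjamini-Hochberg adjustment).

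For Car13 the log2 difference between celecoxib and rofecoxib was -0.19, with an interval of -0.84 to 0.46, so the data do not show that the compounds act alike on it. Car14 had the highest positive value, 0.80, with an interval of -0.34 to 1.95. Car2, Car3, Car5b and Car8 were at -0.43, -0.46, -0.24 and -0.11, and Car4 and Car9 at 0.08 and 0.16. Single libraries moved several of these, Car3 to -0.08 without rofecoxib library 1, Car2 to -0.16 without celecoxib library 2 and Car14 to 0.26 without celecoxib library 1. In all, 6 of 9 were below 0, beside 48.2% of all genes, with a median of -0.19 against 0.01 over all genes. No gene had groups that did not overlap, beside 0.634% of all genes lower and 0.687% higher. Because the doses differed, these values compare the regimens given and not the structures at matched dose.

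**Figure D3:**
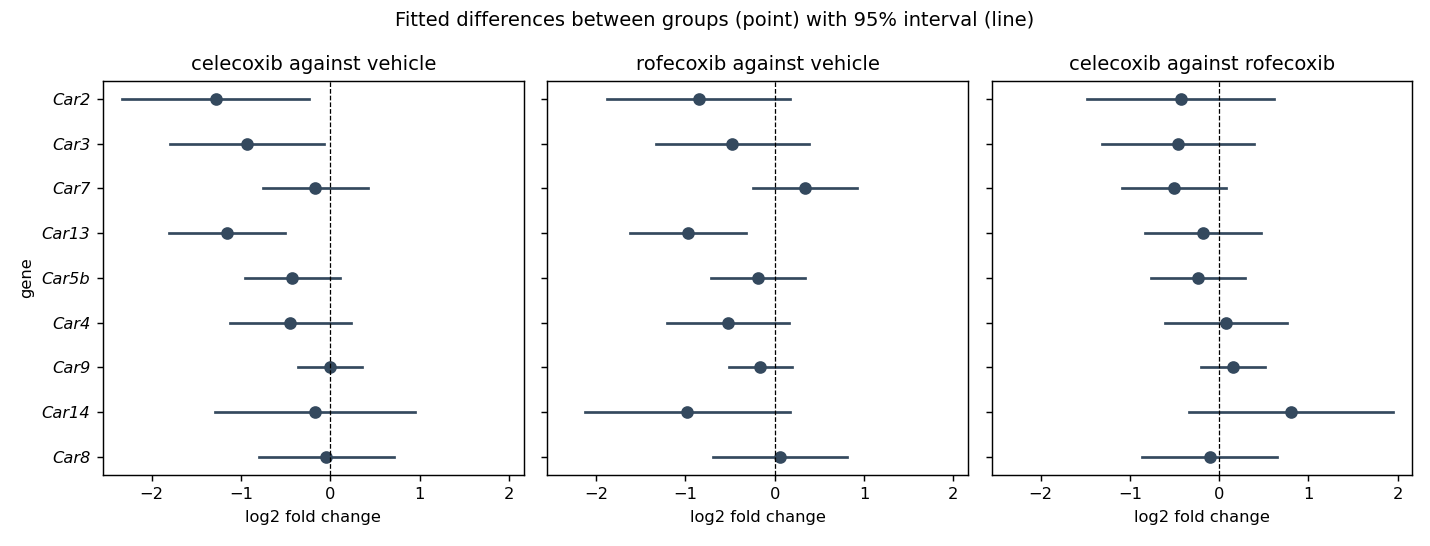
Fitted log2 fold changes with 95% intervals for the 9 carbonic anhydrases that passed the filter, in the 3 comparisons: each drug against vehicle, then the drugs against each other. Car13 lies at -1.16 and -0.97 in the comparisons with vehicle and at -0.19 between the drugs, and every interval in the last panel crosses 0.

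The levels of 6 carbonic anhydrases, Car2, Car3, Car4, Car5b, Car13 and Car14, followed adipocyte markers from library to library. They include the 3 that were lowest after celecoxib. Mouse thoracic aorta is surrounded by perivascular fat of brown type, and Car3 is abundant in fat cells. Over the 15 libraries Car3 followed the mean of 15 white adipocyte markers with Pearson's r = 0.97 and Spearman's rho = 0.88 (permutation test, adjusted p of 0.000504 and 0.000945). The r was 0.95 without vehicle libraries 4 and 5, the farthest from the median of the markers, and 0.96 for deviations from the group means. Car3 also passed both tests with the brown adipocyte markers, at r = 0.72 and rho = 0.68, and r was 0.57 without the 2 farthest libraries. In bulk RNA, fewer cells of a type and less RNA per cell cannot be told apart.

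Car2 and Car13 followed the brown and the white adipocyte markers. Car2 had r = 0.92 and rho = 0.92 with the mean of the brown list (permutation test, adjusted p of 0.00072 and 0.000504), r = 0.74 without celecoxib library 2 and vehicle library 5, and r = 0.88 for deviations from the group means. Car13 had r = 0.87 and rho = 0.92 with the brown list (permutation test, adjusted p of 0.00072 and 0.000504), r = 0.84 without the same libraries and 0.76 for deviations. With the white list both passed too, Car2 at r = 0.84 and rho = 0.84 (0.79 without vehicle libraries 4 and 5) and Car13 at r = 0.84 and rho = 0.81 (0.71 without them).

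Car4 and Car14 passed both permutation tests with both adipocyte lists, and Car5b with the white list (r = 0.84, rho = 0.72). With the brown list Car4 had r = 0.83 and rho = 0.82 and Car14 had r = 0.74 and rho = 0.70, and with the white list Car4 had r = 0.76 and rho = 0.82 and Car14 had r = 0.68 and rho = 0.76. Without the 2 farthest libraries r was 0.74 for Car4 and 0.60 for Car14 with the brown list, and 0.70 for Car4, 0.58 for Car14 and 0.73 for Car5b with the white list. Car13 and Car4 also passed both tests with smooth muscle markers, in the negative direction, at r = -0.75 and rho = -0.75 for Car13 and r = -0.71 and rho = -0.78 for Car4. Without vehicle libraries 3 and 4 these were r = -0.64 and r = -0.68.

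The other 3 genes tested did not pass both tests with either adipocyte list. Car8 followed macrophage markers with r = 0.79 and rho = 0.76 (permutation test, adjusted p of 0.00676 and 0.0128), and r was 0.64 without celecoxib library 3 and rofecoxib library 5. Endothelial markers were nearly as close to Car8, at r = 0.63 and rho = 0.775 (permutation test, adjusted p of 0.0508 and 0.0113). That r stayed at 0.63 without celecoxib library 3 and rofecoxib library 2, and only rho passed. Car7 and Car9 passed both tests with none of the 10 marker lists. For Car9 r was 0.05 with the white and 0.13 with the brown adipocyte list. With the sympathetic neuron list Car9 had r = -0.71 and rho = -0.57 (permutation test, adjusted p of 0.022 and 0.118), so only r passed. That r was -0.61 without celecoxib library 4 and rofecoxib library 5. Between members, Car3 and Car5b had r = 0.93 and rho = 0.85, and Car2 and Car13 had r = 0.82 and rho = 0.94 (permutation tests, adjusted p between 0.000504 and 0.00353). In all 126 relations were computed, with 252 p-values adjusted by the Benjamini-Hochberg method, and 22 relations passed both tests.

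**Figure D4:**
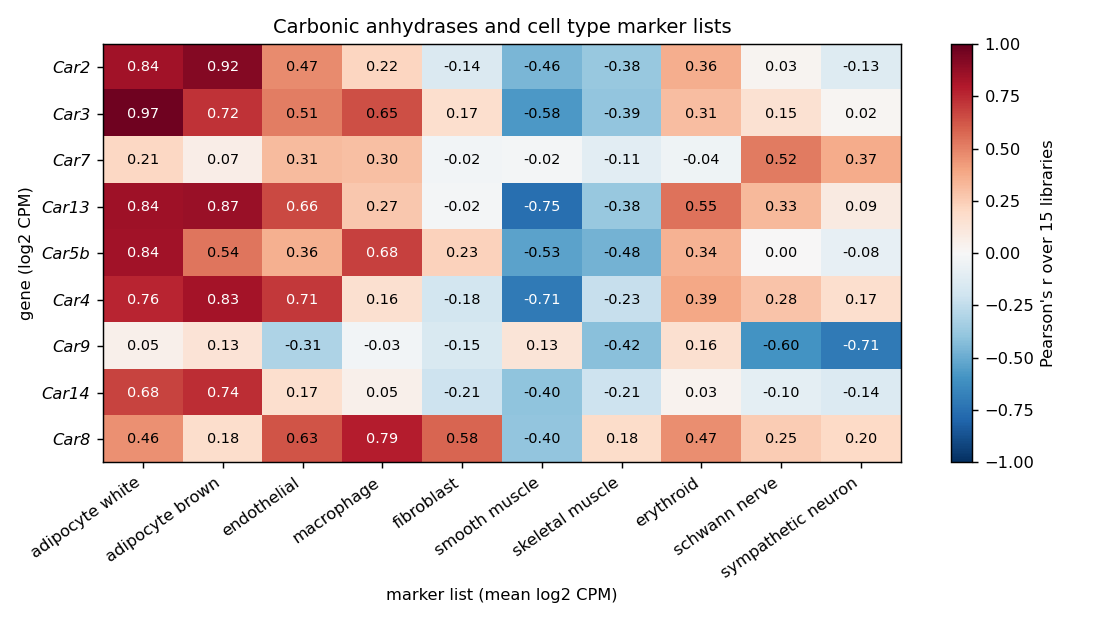
Pearson's r over 15 libraries between log2 CPM of each carbonic anhydrase (rows) and the mean log2 CPM of each marker list (columns). Car3 with white adipocyte markers (0.97) and Car2 and Car13 with brown adipocyte markers (0.92 and 0.87) are the darkest red cells, while Car9 is near 0 with both adipocyte lists.

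The adipocyte markers themselves were mostly lower in treated aortas, without passing adjustment. Of 15 white adipocyte markers 11 had an unadjusted p under 0.05 and were lower after celecoxib, with a median log2 fold change of -0.90, and 0 of 15 after rofecoxib, with a median of -0.49. Of the 12 brown adipocyte markers tested 11 were lower after celecoxib at an unadjusted p under 0.05, with a median of -1.18, and 8 after rofecoxib, with a median of -0.96. None was called by the edgeR quasi-likelihood fit after Benjamini-Hochberg adjustment. Of all genes tested, 7.18% were lower at an unadjusted p under 0.05 after celecoxib and 3.71% after rofecoxib. The summed level of the white list spanned 2080 to 4802 CPM in celecoxib, 2679 to 5290 CPM in rofecoxib and 3235 to 6724 CPM in vehicle libraries. The summed level of the brown list spanned 291 to 808 CPM in celecoxib, 458 to 747 CPM in rofecoxib and 728 to 2017 CPM in vehicle libraries. No marker of either list was at 0 in all libraries.

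With the mean of 27 adipocyte markers as a covariate, the celecoxib against vehicle log2 fold change was 0.22 for Car3, 0.10 for Car2 and -0.30 for Car13, and the rofecoxib against vehicle value of Car13 was -0.48. The median over the 9 genes was then 0.16 for celecoxib and 0.09 for rofecoxib, both against vehicle, and 0.08 between the drugs, on the other side of 0 from the fit without it. With the covariate, the celecoxib against vehicle values of Car3 and Car2 could not be told from 0. Their unadjusted p was 0.494 and 0.792 in the edgeR quasi-likelihood fit. The covariate was measured in the same libraries as the outcome. Its markers were mostly lower in treated aortas, so it can take up part of any difference between groups.

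**Figure D5:**
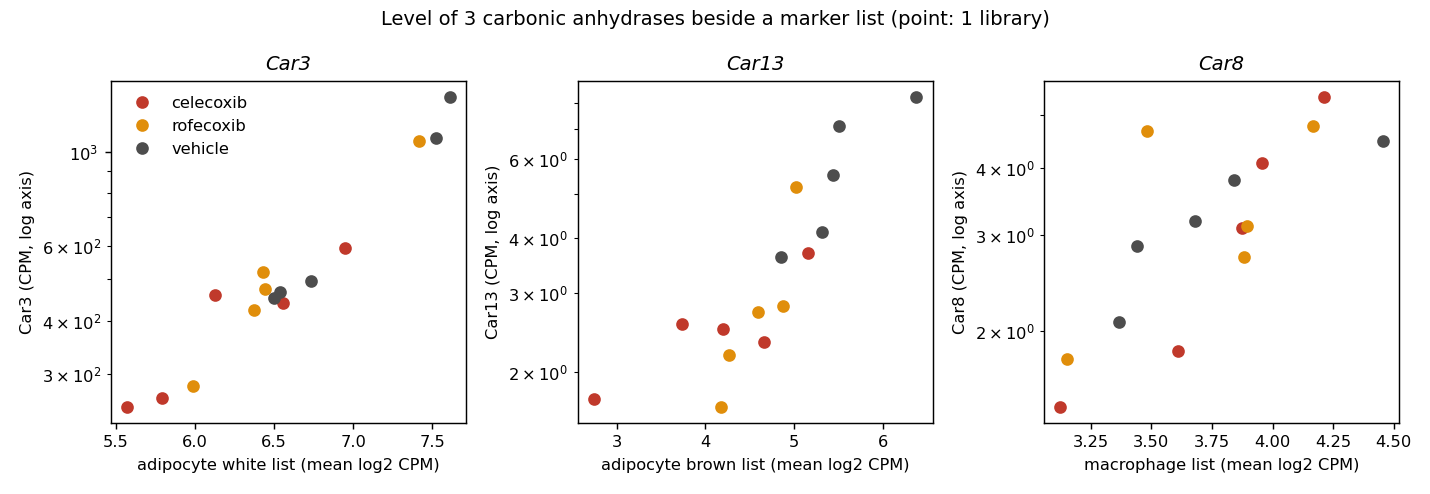
Level of Car3, Car13 and Car8 (CPM, log axis) beside the mean log2 CPM of the white adipocyte, brown adipocyte and macrophage markers (point: 1 library, coloured by celecoxib, rofecoxib and vehicle). Car3 and Car13 lie along a rising band across all 3 groups (r = 0.97 and 0.87), and celecoxib libraries 2 and 5 have the lowest brown adipocyte markers.

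The summed markers of other sources of carbonic anhydrase overlapped between the groups, as did the sums of both adipocyte lists. Skeletal muscle, where slow fibres hold much Car3, was represented by markers summing to 12.8 to 17.5 CPM in celecoxib, 13.5 to 20.2 CPM in rofecoxib and 11.5 to 15.5 CPM in vehicle libraries. Red cell markers, which go with Car2 in blood, summed to 76.3 to 273 CPM in celecoxib, 47.5 to 169 CPM in rofecoxib and 57.2 to 361 CPM in vehicle libraries. Endothelial markers summed to 739 to 1158 CPM in celecoxib, 621 to 1055 CPM in rofecoxib and 814 to 1155 CPM in vehicle libraries, and their part in the Car4 values was not tested. Of the 12 endothelial markers 10 had a log2 fold change below 0 for celecoxib against vehicle and 12 for rofecoxib against vehicle. The list medians were -0.16 and -0.23, and 48.6% and 50.3% of all genes tested were below 0. Over the 15 libraries Car4 followed the endothelial mean with r = 0.71 and rho = 0.54 (permutation test, adjusted p of 0.022 and 0.136), Car2 followed the red cell mean with r = 0.36, and Car3 the skeletal muscle mean with r = -0.39, none of which passed both tests.

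The genes most like each carbonic anhydrase in their pattern over the 15 libraries, among 11932 genes with a mean of at least 1 CPM, differed from member to member. For Car3 they were Cidec (r = 0.99), Acp5 (0.98) and Adipoq (0.98). For Car13 they were Lpar6 (0.96), Slc25a20 (0.95) and Hsdl2 (0.95), and for Car2 they were Apoc1 (0.94), Gys2 (0.93) and Acss1 (0.93). For Car4 they were Cyyr1 (0.95), Gpihbp1 (0.92) and Sh3bgrl2 (0.91), for Car5b Cyp2e1 (0.94), Retn (0.93) and Car3 (0.93), and for Car14 Gmps (0.93), Tmbim4 (0.92) and Mtch2 (0.92). For Car8 they were Procr (0.92), Stab1 (0.91) and Cmtm3 (0.88), and for Car7 Sipa1l2 (0.94), Ints4 (0.92) and Muted (0.92). Car9 had the loosest matches, Tnpo2 (0.81), Tubgcp5 (0.78) and Rbms2 (0.78).

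The transporters that carry bicarbonate and protons across membranes, and so handle the products of these enzymes, held a few low values of their own. Of 25 such genes 19 were tested and 0 were called in any comparison by the edgeR quasi-likelihood fit (Benjamini-Hochberg adjustment). For celecoxib against vehicle 1 was higher and 4 were lower at an unadjusted p under 0.05, with a list median of -0.04. Of all genes tested, 5.35% were higher and 7.18% lower in that way. Slc16a1, a carrier of lactate with a proton, averaged 14.9 ± 4.75 CPM in celecoxib, 18.9 ± 3.86 CPM in rofecoxib and 38.9 ± 18.8 CPM in vehicle aortas (SD, n = 5 each). It was at 0.382-fold after celecoxib (adjusted p = 0.260) and 0.487-fold after rofecoxib (adjusted p = 0.896) in the same test. Slc4a4, a sodium bicarbonate cotransporter, averaged 21.2 ± 7.16 CPM in celecoxib, 25.1 ± 10.3 CPM in rofecoxib and 41.5 ± 13.5 CPM in vehicle aortas, at 0.511-fold and 0.604-fold of vehicle. For rofecoxib against vehicle 0 were higher and 2 lower, beside 1.47% of all genes tested higher and 3.71% lower. For celecoxib against rofecoxib 0 were higher and 1 lower, beside 4.05% of all genes tested higher and 2.91% lower.

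Genes of the hypoxia response, which is known to drive Car9 and Car12, had values in both directions. Of 17 genes, all tested, 2 were higher and 4 lower for celecoxib against vehicle at an unadjusted p under 0.05, 0 higher and 2 lower for rofecoxib against vehicle, and 2 higher and 1 lower for celecoxib against rofecoxib, with 0 called in each by the edgeR quasi-likelihood fit (Benjamini-Hochberg adjustment). Vegfa, the main angiogenic growth factor, averaged 64.4 ± 16.4 CPM in celecoxib, 82.4 ± 13.4 CPM in rofecoxib and 109.9 ± 23.7 CPM in vehicle aortas. Hif3a, a member of the factor family itself, averaged 20.8 ± 11.2 CPM in celecoxib, 7.62 ± 1.53 CPM in rofecoxib and 8.596 ± 3.30 CPM in vehicle aortas, 2.42-fold of vehicle and 2.73-fold of rofecoxib. The list medians were -0.05, -0.09 and 0.06 in the order of the comparisons above. In the same order, 12.5%, 5.18% and 6.96% of all genes tested had an unadjusted p under 0.05. Car9, whose promoter held the ACGTG core, kept a mean of 2.39 ± 0.487 CPM in celecoxib, 2.14 ± 0.319 CPM in rofecoxib and 2.39 ± 0.364 CPM in vehicle aortas.

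Other members of the family were Car1, Car5a and Car6, which did not pass the filter on low counts, and Car10, Car11 and Car15, which did. Car11, which like Car8 and Car10 lacks catalytic activity, averaged 37.1 ± 2.60 CPM in celecoxib, 40.9 ± 6.45 CPM in rofecoxib and 36.5 ± 2.82 CPM in vehicle aortas. Its log2 fold changes were 0.02 for celecoxib against vehicle, 0.16 for rofecoxib against vehicle and -0.14 for celecoxib against rofecoxib. Car10 and Car15 averaged under 1 CPM in every group, and none of the 3 was called.

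Some counts cannot be assigned to a carbonic anhydrase with certainty, because the use of strand in counting is not given. Car7 shares 342 bases of its span with Nae1, which had 24044 counts over all libraries against 700 for Car7. Car14 shares 925 bases with Aph1a, which had 18244 counts against 702 for Car14, and Car9 shares 2186 bases with Gm12454, which had 2174 counts against 1069 for Car9.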

How the data were processed

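Polyadenylated RNA of 15 aortas was sequenced from TruSeq libraries made over 3 days with 13 PCR cycles, per the labels, which give no day for a library. The counts per gene are as the authors deposited them. CASAVA 1.8.2, STAR 2.5.2a and mm9 are named in the submitters' processing notes. Not given in the sources used here are the counting tool, its use of strand and the annotation. Totals differed by 0.0971%, so a step that equalised them is possible and the depth before it is unknown. All 37 mitochondrial rows held 0 counts. Every numeric column belonged to a sample (0 unused).

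Genes were kept by filterByExpr (minimum count 10), which left 15134 of 37681 genes with 99.95% of the counts. Libraries were scaled by TMM (factors 0.953 to 1.04) and fitted with edgeR 4.0.16 in R 4.3.3 (quasi-likelihood, robust, all 15 libraries, no covariate). P-values were adjusted by Benjamini-Hochberg over all genes, with a threshold of 0.05. P-values of the fit set a difference between groups against the spread between these libraries. Intervals are 95% intervals of the fit, and the floor of 3 counts covers counting error alone. CPM used the scaled totals, and log2 CPM a prior count of 2. Exon lengths came from GENCODE M21 on GRCm38, and figures were drawn with matplotlib 3.10.9. Alternatives used DESeq2 1.42.0 and limma 3.58.1 among others. Permutation tests of correlations used 100000 resamples, and the smallest p they can give is 1e-05. No pair of libraries in a group agreed within sampling noise (chi-square per gene of at least 13.1 over 14924 genes). The fit was tested on simulated data.

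The members and gene lists were chosen with earlier results of these data known. All 10 members and the tested relatives were named, with, per list, up to 4 genes of smallest unadjusted p under 0.05, of which some were left out of the text, and the 3 genes most like each member.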

Additional observations from a re-analysis of the deposited data

Results flagged for a closer look

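Car2 in vehicle library 5 stood at 3.68 CPM, with the nearest vehicle library at 1.68 CPM, a gap of 0.742 of the range of the group. Without that library the log2 fold change of Car2 was -0.85 for celecoxib against vehicle and -0.41 for rofecoxib against vehicle, against -1.29 and -0.85 with it. The same library had the highest mean of the brown adipocyte markers, and the part of those markers in the value was not tested.

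Car7 in vehicle library 3 stood low at 1.09 CPM, with the nearest vehicle library at 1.48 CPM, a gap of 0.849 of the range. In all 30 groups of libraries were checked in this way, and chance marks about 1 in 20.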

How the results depend on the processing

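The carbonic anhydrases called stayed at 0 in every comparison and alternative tried except DESeq2's Wald test, which called 1, Car13, for celecoxib against vehicle (log2 fold change -1.15). DESeq2 gave Car2 no adjusted p in that comparison. DESeq2 called 129 of all genes for celecoxib against vehicle and 20 for celecoxib against rofecoxib, while edgeR and limma-voom called 0. Leaving out each library in turn, all genes called ranged from 0 to 8 for celecoxib against vehicle (8 without celecoxib library 4, 1 without celecoxib library 5, 2 without vehicle library 2) and from 0 to 1 for celecoxib against rofecoxib (1 without celecoxib library 5). The median log2 fold change ranged from -0.71 to -0.21 for celecoxib against vehicle, from -0.62 to -0.20 for rofecoxib against vehicle and from -0.30 to 0.045 for celecoxib against rofecoxib, above 0 only without rofecoxib library 1. In the same way Car13 for celecoxib against vehicle ranged from -1.31 to -0.99. With leave-one-out changes of sign, celecoxib against vehicle ranged from -0.34 to 0.026 for Car7, -0.32 to 0.14 for Car8, -0.099 to 0.086 for Car9 and -0.71 to 0.086 for Car14. Rofecoxib against vehicle ranged from -0.37 to 0.023 for Car5b and -0.093 to 0.23 for Car8, and celecoxib against rofecoxib from -0.21 to 0.26 for Car4, -0.39 to 0.074 for Car8 and -0.35 to 0.13 for Car13. With the adipocyte marker mean as covariate the medians were 0.16 for celecoxib and 0.086 for rofecoxib, both against vehicle, and 0.079 between the drugs. Values whose sign was then reversed were, for celecoxib against vehicle, Car2 0.10, Car3 0.22, Car4 0.28, Car5b 0.16, Car8 0.35, Car9 0.044 and Car14 1.07, for rofecoxib against vehicle, Car2 0.086, Car3 0.20, Car4 0.0043 and Car5b 0.16, and for celecoxib against rofecoxib, Car2 0.018, Car3 0.019, Car8 0.079 and Car13 0.18. Car9 for celecoxib against vehicle was 0.0032 with DESeq2 size factors, 0.0030 with upper quartile scaling, 0.0071 with no filter, 0.0028 in DESeq2's Wald test and 0.035 without the 4 libraries of highest sympathetic neuron markers, a set chosen after seeing the data. Without those 4 libraries the rofecoxib against vehicle median was -0.060, Car3 was 0.14 and Car5b 0.27. Car4 for celecoxib against rofecoxib was -0.071 in limma-voom, -0.018 with the replicate block and -0.059 in the permutation test. The cause of these reversals was not tested. Same-numbered libraries correlated from -0.72 to 0.78 in their deviations, with a median of -0.00 and 6 of 15 over 0.1. Pairs with different numbers had a median of 0.04. No pairing by number was seen, but with correlations this widely spread the check cannot exclude one. With the replicate block 0 genes were called in each comparison, and the medians were -0.49, -0.40 and -0.17 in the order celecoxib and rofecoxib against vehicle, then the drugs against each other. Over 27 member comparisons and the alternatives, 702 values were computed, of which 642 kept their sign and side of the threshold, 54 changed sign and 6 were newly past it, 5 of them unadjusted permutation tests. At 0 to 10 counts per library, depth kept Car12 from being tested.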
